A study of Mus musculus with 5 samples.

Results

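The mitochondrial ribosomal protein genes were taken as every gene whose symbol starts with Mrpl or Mrps followed by a number. They came to 77 of the 27998 genes in the matrices, 48 with an Mrpl and 29 with an Mrps symbol. The rule reads symbols only, but the group was chosen with earlier results of these data known. The data were UMI counts (unique molecular identifiers, each standing for 1 captured transcript) from droplet-based single-cell libraries of the 3' ends of RNA. The cells were bone marrow progenitors of wild-type C57BL/6 mice, untreated healthy controls, sorted into 4 gates. The labels give no age, sex or number of mice, nor whether animals were pooled. LSK cells were Lin-SCA1+KIT+. CMP cells were Lin-KIT+SCA1-CD34+CD16/32-, GMP cells were Lin-KIT+SCA1-CD34+CD16/32+, and MEP cells were Lin-KIT+SCA1-CD34-CD16/32-. The names stand for the stem and multipotent compartment and for the common myeloid, the granulocyte and monocyte, and the megakaryocyte and erythroid progenitors.

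Each gate was 1 library, because the 2 samples labelled CMP held identical matrices and were counted once. There is therefore no replicate spread, no test and no p-value, and all intervals (95%) cover counting error only. The LSK, CMP, GMP and MEP libraries kept 10870, 3713, 8027 and 6284 cells with a median of 5991.5, 6904, 9100 and 12578 UMIs per cell. Pairs of libraries shared 36 to 130 cell barcodes, 0.907 to 1.62% of the smaller library. The transcripts of the sort antigens went with the labels: Ly6a, which encodes SCA1, stood at 78.2 CPM (UMIs of the gene per 1000000 UMIs of the library) in LSK and at 1.49 or less in the other gates. Cd34 stood at 0.498 CPM in MEP, and Fcgr3, part of CD16/32, was highest in GMP at 207.7 CPM. The summed level of 12 erythroid markers was 11275 CPM in MEP, and that of 9 granulocyte-monocyte markers was 29177 CPM in GMP. Of markers of other cells, the B cell list summed to between 1.73 CPM in MEP and 49.1 CPM in GMP, nearly all of it Cd79b, with Ms4a1 at 0. The T/NK cell list summed to 291 (LSK), 425 (CMP), 1205 (GMP) and 44.6 CPM (MEP), nearly all of it Nkg7, with Cd3e at 0.03 CPM or less. The dendritic list summed to 1155 (LSK), 1677 (CMP), 1049 (GMP) and 304 CPM (MEP), most of it Cst3 in CMP, GMP and MEP. The part of such cells in the results was not tested.

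Mitochondria carry their own ribosome, which translates the few messenger RNAs encoded by mitochondrial DNA, all of them for membrane subunits of the respiratory chain and ATP synthase. Its RNA comes from the mitochondrial genome, but its proteins are all encoded in the nucleus, made in the cytosol and imported. Some have counterparts in the bacterial ribosome, and others exist only in mitochondria. Of the 77 genes, 50 encode proteins of the large subunit, including Mrps30 and Mrps18a despite their symbols, and 27 are listed with the small subunit. The product of Mrps36, listed with the small subunit by its symbol, is now known as a component of the α-ketoglutarate dehydrogenase complex. By family, 47 are shared with bacteria and 30 are specific to mitochondria. They lie on 17 chromosomes (GRCm38, GENCODE M21), and all 77 are annotated as protein-coding genes.

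The level of these genes was lowest in LSK and highest in MEP. Their summed level was 7248.5 CPM for LSK (7229 to 7268) and 9558 CPM for CMP (9521 to 9595). GMP had 11011 CPM (10987 to 11035) and MEP 13839 CPM (13813 to 13865). These intervals did not overlap. The sum in MEP was thus 1.91 times that in LSK and 1.26 times that in GMP, and the sum in CMP was 1.32 times that in LSK. The median gene stood at 153.8 CPM in MEP, 106.6 in GMP, 97.3 in CMP and 78.1 in LSK. These are shares of each library's UMIs, so they do not say whether a cell holds more transcripts in absolute number.

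Most of the genes followed the order of the sum. The order MEP, GMP, CMP, LSK from high to low was found for 49 of the 77, and 59 had it under either median-of-ratios or TMM scaling. MEP was the highest gate for 64 genes, GMP for 8, CMP for 3 and LSK for 2. LSK was the lowest gate for 68 genes. The 9 that were not lowest in LSK were Mrps5, Mrpl24, Mrpl9, Mrpl33, Mrpl53, Mrpl17, Mrps31, Mrpl52 and Mrps6. By median-of-ratios factors only Mrpl53, Mrpl52 and Mrps6 remained so, with Mrpl9 added by TMM. The heat map of all 77 genes shows the common gradient and the few rows that leave it.

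**Figure D1:**
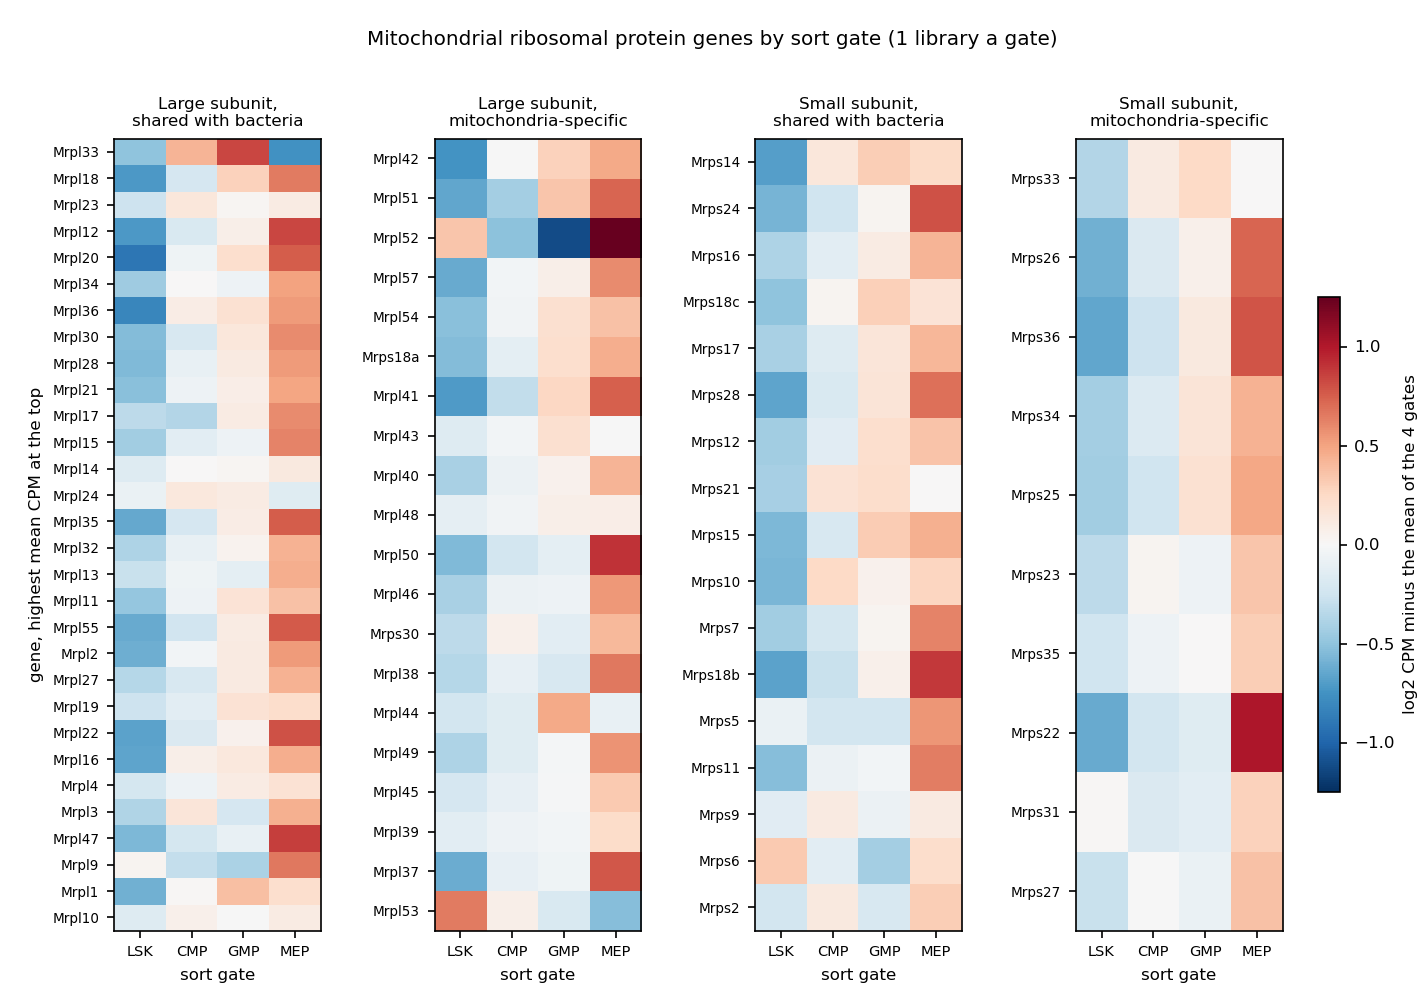
Each row is 1 gene and each column a sort gate (1 library each). The colour gives log2 CPM minus that gene's mean over the 4 gates, from blue (low) to red (high), in 4 panels by ribosomal subunit and by whether the protein has a bacterial counterpart. LSK is the lowest gate in 68 of 77 rows and MEP the highest in 64, while Mrpl33 is highest in GMP and Mrpl52 is lowest there.

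For a rule of size, a gene was counted where 1 gate was 2-fold or more above the other with 10 CPM or more in the higher gate. Of the 77, 76 had 10 CPM or more in every gate. MEP against LSK set the genes apart most: 30 of 76 were 2-fold higher in MEP, against 9.16% of all 8034 genes compared, and 0 were 2-fold higher in LSK, against 24.9% of all genes. The median log2 ratio of LSK over MEP was -0.90 for the 76 genes and 0.16 over the 8034. The number 2-fold higher in MEP was 60 by median-of-ratios and 57 by TMM factors, and 17 among cells with 8000 to 10000 UMIs, a restriction chosen after seeing the data. The distribution of MEP over LSK ratios was narrow and lay to the right of that of all genes.

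**Figure D2:**
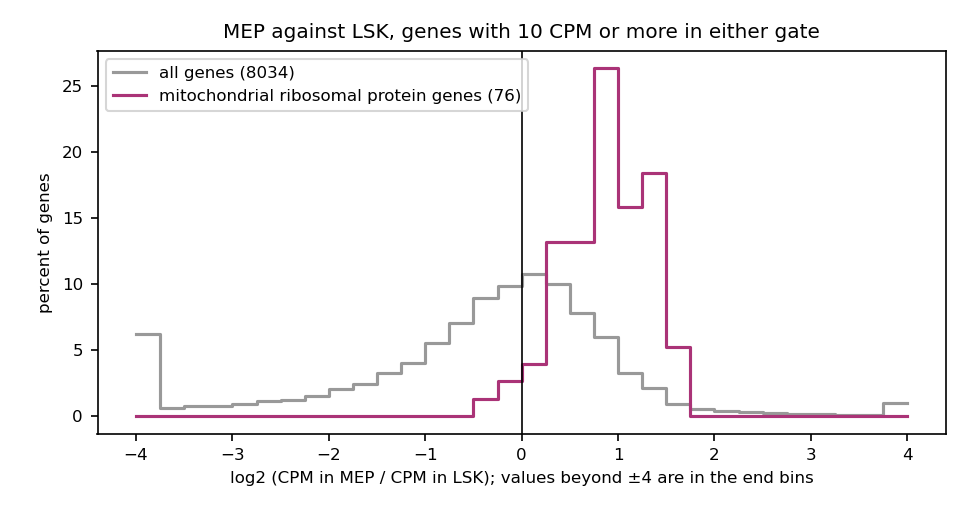
The x axis is log2 of CPM in MEP over CPM in LSK in bins of 0.25, and the y axis the percent of genes in each bin, for all 8034 genes with 10 CPM or more in either gate (grey) and for 76 mitochondrial ribosomal protein genes (purple). The purple curve lies mostly between 0 and 1.75, and the grey curve has its broad left tail below 0.

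The other pairs of gates differed less. In GMP against LSK, 6 of 76 genes were 2-fold higher in GMP (5.13% of all genes), namely Mrpl33, Mrpl20, Mrpl42, Mrpl18, Mrpl36 and Mrpl51. The only gene 2-fold higher in LSK was Mrpl52 (21% of all genes). The 6 to 1 split became 44 to 0 by median-of-ratios and 38 to 1 by TMM factors, and 3 genes rather than 6 were 2-fold higher in GMP without doublets. In CMP against LSK, 0 genes were 2-fold higher in CMP (2.05% of all genes) and 0 in LSK (12.3%), and either other scaling gave 7 higher in CMP. The median log2 ratios over the 76 genes were -0.53 for LSK over GMP and -0.34 for LSK over CMP, with 0.29 over the 7930 and 0.21 over the 7817 genes compared.

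Among the 3 gates without SCA1, MEP again had the higher levels. In MEP against CMP, 10 genes were 2-fold higher in MEP, led by Mrpl52, Mrps22 and Mrps18b, against 10.9% of all genes. Mrpl33 alone was 2-fold higher in CMP (14.6% of all genes). Among cells with 8000 to 10000 UMIs, 1 gene rather than 10 was 2-fold higher in MEP. In MEP against GMP, Mrpl52, Mrps22, Mrpl9 and Mrpl50 were 2-fold higher in MEP (12.8% of all genes) and Mrpl33 in GMP (13.8%). With the same restriction on UMIs, 2 rather than 4 were higher in MEP. In CMP against GMP, 0 genes were 2-fold higher in CMP (5.32% of all genes) and 0 in GMP (2.99%), under these factors and both other scalings. The shares of genes called in MEP over CMP and in MEP over GMP were thus near or below the background, while the medians leaned to MEP: -0.56 for CMP over MEP (-0.11 over the 7254 genes compared) and -0.41 for GMP over MEP (-0.18 over 7170).

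The subunits and families shared the gradient. The large-subunit genes summed to 4832 CPM (LSK), 6350 (CMP), 7323 (GMP) and 9322 (MEP). The small-subunit genes summed to 2416, 3208, 3688 and 4516 CPM in the same order. The median log2 ratio of LSK over MEP was -0.94 for the large and -0.82 for the small subunit, and -0.85 for proteins shared with bacteria against -0.90 for mitochondria-specific ones. Smaller structural groups spread more widely. The L7/L12 stalk, which recruits translation factors, is represented by Mrpl10, Mrpl11 and Mrpl12, and summed to 259 CPM (LSK), 359 (CMP), 421 (GMP) and 633 (MEP). Within it, Mrpl12 went from 160 CPM in LSK to 470 CPM in MEP, while Mrpl10 went from 25.8 to 31.1 CPM. The 7 genes of the central protuberance, a part of the large subunit, all had higher values in MEP than in LSK, with a median log2 ratio of LSK over MEP of -0.95. The 8 genes around the polypeptide exit, where the new chain leaves toward the inner membrane, had a median of -0.45, and 1 of them, Mrpl24, had the higher value in LSK by CPM but the lower by both other scalings.

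The genes with the highest levels were led by Mrpl33, Mrps14 and Mrpl18. Because each transcript is tagged at its 3' end, UMI levels can be set side by side without dividing by transcript length. Mrps14, a protein of the head of the small subunit, stood at 226 CPM (LSK), 403 (CMP), 451 (GMP) and 431 (MEP). Mrpl18, which sits with the central protuberance, stood at 209, 299, 422 and 541 CPM in that order. Mrpl42 stood at 189, 316, 387 and 440 CPM. Mrps14, Mrpl18 and Mrpl42 were all lowest in LSK. Of the 10 highest, Mrpl18, Mrpl42, Mrpl12, Mrpl20, Mrps24 and Mrpl34 had their top level in MEP. Mrpl20 had 125, 226, 270 and 396 CPM, the largest MEP over LSK ratio of the 76 genes at 3.17 (log2 of LSK over MEP -1.66, -1.70 to -1.63). By CPM Mrpl23 and Mrps33 were flatter: Mrpl23 lay between 247 and 326 CPM, and Mrps33 between 247 and 377 CPM. The other scalings gave wider steps. By median-of-ratios and TMM factors the log2 ratio of LSK over MEP was -0.88 and -0.80 for Mrpl23. That of LSK over GMP was -1.15 and -1.06 for Mrps33.

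At the low end stood Mrpl53, a mitochondria-specific protein of the large subunit, with 108 UMIs (LSK), 26 (CMP), 59 (GMP) and 51 (MEP). That is 1.44, 0.966, 0.804 and 0.635 CPM, and it was the only gene under 10 CPM in any gate. Gm42688 overlaps it on the same strand in the annotation, so its reads may be split. Mrps2, a small-subunit protein with a bacterial counterpart, was next lowest at 12.8, 16.3, 13.03 and 18.6 CPM. Mrps27 stood at 15.2, 18.3, 17.4 and 23.7 CPM. The rank order of the 77 genes by level was similar in every gate: Spearman's rho between gates ran from 0.90 for LSK and MEP to 0.97 for CMP and GMP, a description over genes of the same libraries.

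How far a gene moved differed by gene. The ratio of the highest to the lowest gate ran from 1.15 for Mrpl48 to 5.26 for Mrpl52, with a median of 1.94 over 76 genes, near the 1.96 over 8224 genes measured by the same minimum. For 43 of the 76 the ratio was under 2, and for 12 by median-of-ratios and 15 by TMM factors, which gave medians of 2.72 and 2.57 (2.09 and 2.04 over the 8224 genes). Mrpl52 had the largest ratio by all 3 scalings, while the smallest was that of Mrps6 by median-of-ratios (1.54) and of Mrpl24 by TMM factors (1.547). Mrpl48, part of the central protuberance, stood at 82.9 CPM in LSK, its lowest gate, 86.7 in CMP and 94.2 in GMP, and MEP was 1.15 times LSK. Its ratio of highest to lowest was 1.65 by median-of-ratios and 1.55 by TMM factors. Pseudogenes named Mrpl48-ps and Mrpl23-ps1 are annotated, and their effect on the reads of Mrpl48 and Mrpl23 was not tested. Mrps9, Mrpl10, Mrpl24 and Mrpl14 had ratios of 1.20 to 1.22 by CPM. At the other end Mrps22, a small-subunit protein specific to mitochondria, stood at 29.7, 39.0, 41.2 and 92.5 CPM. In Mrps22 the step was between MEP and the other 3 gates: MEP over GMP was 2.24 and GMP over LSK 1.39.

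Mrpl52 and Mrpl33 departed from the gradient and did so in opposite ways. Mrpl52 (chr14:54426909-54429756, plus strand) encodes a large-subunit protein specific to mitochondria. It stood at 432 CPM in MEP (427 to 436), 226 in LSK (223 to 229), 125 in CMP (121 to 129) and 82.1 in GMP (80.1 to 84.2). GMP was thus its lowest gate, with a log2 ratio of GMP over MEP of -2.39 (-2.43 to -2.35) and of LSK over GMP of 1.46 (1.42 to 1.504). The latter was 0.92 by median-of-ratios and 1.01 by TMM factors. No annotated gene overlaps Mrpl52. Mrpl33 (annotated as chr5:31596935-31664384, plus strand) encodes a small large-subunit protein with a bacterial counterpart. It stood at 638 CPM in GMP (632 to 644) and 482 CPM in CMP (474 to 490), against 254 CPM in LSK (250 to 257) and 212 CPM in MEP (209 to 215). GMP was thus its highest gate, and its log2 ratio of GMP over MEP was 1.59 (1.56 to 1.61). Its small excess in LSK over MEP, 0.26 on the log2 scale, became -0.26 by median-of-ratios and -0.18 by TMM factors. The Mrpl33 gene model overlaps Gm43809 on the same strand and Rbks on the other, so reads could be shared among them.

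Other departures were smaller. Mrps6, a protein of the small subunit shared with bacteria, stood at 32.9 CPM (LSK), 24.0 (CMP), 19.6 (GMP) and 30.6 (MEP). LSK and MEP were both above the 2 myeloid gates for it, and it overlaps Slc5a3 on the same strand. Its log2 ratio of LSK over MEP, 0.10 (0.02 to 0.19), was -0.41 by median-of-ratios and -0.33 by TMM factors. Mrpl9, of the base of the L1 stalk region, stood at 48.8, 38.7, 36.1 and 74.8 CPM in the same order of gates. Mrpl44, an RNase III-like protein of the exit region, had its highest level in GMP at 86.7 CPM, against 53.0 in LSK, 56.1 in CMP and 58.3 in MEP.

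The shares of cells with a UMI followed the levels of Mrpl52 and Mrpl33. Cells were thinned to 3000 UMIs each, which left out 734 shallower LSK, 242 CMP, 167 GMP and 0 MEP cells. Mrpl52 was then seen in 70.9% of MEP, 49.9% of LSK, 31.7% of CMP and 21.8% of GMP cells, and Mrpl33 in 46.4, 49.5, 71.4 and 82.8%. Unthinned, the shares were 94.3, 74.5, 55.8 and 50.4% for Mrpl52 and 84.9, 73.0, 85.3 and 97.1% for Mrpl33. No sorted population is known to lack these genes, so the share that free RNA gives could not be read from such a population. Summed over the 77 genes, a thinned cell held a mean of 21.1 UMIs (LSK), 27.9 (CMP), 32.6 (GMP) and 39.7 (MEP). The median number of the 77 genes seen per thinned cell was 17, 22, 24 and 29, and 0 cells lacked all of them.

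Promoters are shown for the genes with opposite patterns, Mrpl52 and Mrpl33, and for Mrps22, Mrpl18 and Mrpl12, which had the order of the group, to set motif matches beside the levels. Promoter windows are from RefSeq (GRCm38.p6), 250 bases before to 50 after the start. They were found for 68 of the 77 genes, in 74 windows. The windows below are given 5′ to 3′ on the gene's strand, with capitals for the ETS-type motif CCGGAAG or its reverse complement CTTCCGG, the core bound by GABP, a factor known for driving nuclear genes of mitochondrial proteins. Their positions are chr14:54426659-54426958 (plus strand) for Mrpl52, chr5:31613701-31614000 (plus) for Mrpl33, chr9:98601630-98601929 (minus) for Mrps22, chr17:12916042-12916341 (minus) for Mrpl18 and chr11:120484387-120484686 (plus) for Mrpl12.
Mrpl52: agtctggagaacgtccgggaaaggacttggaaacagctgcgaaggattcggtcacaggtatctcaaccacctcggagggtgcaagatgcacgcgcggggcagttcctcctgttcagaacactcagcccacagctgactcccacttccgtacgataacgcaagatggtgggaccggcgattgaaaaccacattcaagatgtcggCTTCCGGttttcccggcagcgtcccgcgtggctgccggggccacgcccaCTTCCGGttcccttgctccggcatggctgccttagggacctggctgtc
Mrpl33: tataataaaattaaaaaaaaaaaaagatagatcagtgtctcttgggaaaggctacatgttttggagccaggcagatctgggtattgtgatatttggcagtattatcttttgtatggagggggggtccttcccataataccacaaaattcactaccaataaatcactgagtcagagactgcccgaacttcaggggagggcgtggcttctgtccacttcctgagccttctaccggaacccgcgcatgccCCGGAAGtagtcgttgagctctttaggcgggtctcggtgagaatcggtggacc
Mrps22: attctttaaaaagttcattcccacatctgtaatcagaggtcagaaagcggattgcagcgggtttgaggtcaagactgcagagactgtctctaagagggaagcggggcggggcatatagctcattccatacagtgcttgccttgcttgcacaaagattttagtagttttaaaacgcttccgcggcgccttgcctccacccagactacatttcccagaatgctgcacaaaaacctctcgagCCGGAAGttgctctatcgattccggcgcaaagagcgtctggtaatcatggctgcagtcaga
Mrpl18: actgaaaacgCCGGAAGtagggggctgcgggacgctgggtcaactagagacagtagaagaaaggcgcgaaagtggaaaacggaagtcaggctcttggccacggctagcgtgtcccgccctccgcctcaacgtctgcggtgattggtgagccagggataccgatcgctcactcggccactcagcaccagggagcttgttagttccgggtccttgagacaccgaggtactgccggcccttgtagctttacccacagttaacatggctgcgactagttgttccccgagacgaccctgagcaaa
Mrpl12: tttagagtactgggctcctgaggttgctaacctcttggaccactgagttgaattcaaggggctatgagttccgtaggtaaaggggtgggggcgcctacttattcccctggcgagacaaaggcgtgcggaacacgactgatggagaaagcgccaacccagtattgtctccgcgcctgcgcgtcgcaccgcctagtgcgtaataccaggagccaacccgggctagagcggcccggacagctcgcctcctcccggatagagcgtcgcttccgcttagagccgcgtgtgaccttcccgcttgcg
The Mrpl52 window holds 2 matches, those of Mrpl33, Mrps22 and Mrpl18 hold 1 each, and that of Mrpl12 holds 0. Mrpl52 and Mrpl33 thus both had a match, as had 2 of the 3 genes shown that had the order of the group.

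Across the group, the ETS motif was in 25 of 74 windows (33.8%), against 8.86% of all 32851 windows and 11.1% of the 21959 windows of symbols in the matrices. The NRF1 motif GCGCATGCG was in 7 windows (9.46%, against 1.75 and 2.3%), among them those of Mrpl9, Mrpl17 and Mrpl32. The YY1 motif AAGATGGCG was in 8 windows (10.8%, against 1.40 and 1.8%), among them those of Mrpl42, Mrps24 and Mrpl36. At least 1 of these 3 motifs was in 35 windows (47.3%, against 11.4% of all windows). Motifs with other binders differed less: CACGTG, bound by MYC and USF, was in 9.46% against 7.15%, CCAAT in 40.5% against 37.4%, and the GATA motif AGATAA in 14.9% against 11.2%. All motifs were searched on both strands. The windows of the group had a median GC content of 58.5%, against 52.7% over all windows. Both backgrounds include windows of genes at any level of expression, also unexpressed ones. The parts of GC content and of expression level in the motif counts were not tested. A match is only a run of letters in the window and does not show that a factor binds there.

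Other genes of mitochondrial translation were set beside the ribosomal proteins to see how far the gradient reached. Proteins of the mitochondrial ribosome with other symbols followed it: the 6 genes summed to 625 CPM (LSK), 875 (CMP), 947 (GMP) and 1252 (MEP). Dap3, a GTP-binding small-subunit protein, was 1 of the 2 that were 2-fold higher in MEP than in LSK, at 204 against 82.7 CPM. Genes of assembly, translation factors, tRNA synthetases and mitochondrial DNA expression did not follow it at the step out of LSK. The 25 assembly genes had a median log2 ratio of LSK over CMP of 0.23, the 18 translation factors 0.24, the 17 mitochondrial tRNA synthetases 0.31 and the 11 genes of mitochondrial DNA expression 0.43. These medians, over genes whose 2 gates average at least 1 CPM, are near the 0.33 over all genes by the same minimum, where the ribosomal proteins had -0.34. By median-of-ratios factors they became -0.15, -0.13, -0.07 and 0.05, against -0.72 for the ribosomal proteins, since the factors move all genes alike. Against MEP all 4 lists leaned to MEP, with medians of LSK over MEP of -0.20, -0.34, -0.43 and -0.14.

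Single genes of these lists showed the contrast. Tsfm, the guanine exchange factor of mitochondrial elongation factor Tu, did go with the ribosomal proteins at 61.4 CPM (LSK), 109 (CMP), 113 (GMP) and 148 (MEP). Its partner Tufm stood at 25.3, 23.4, 23.6 and 38.4 CPM, and took the order of the ribosomal proteins by both other scalings. Guf1, a back-translocating GTPase, was highest in LSK at 33.7 CPM, against 16.2 in CMP, 21.3 in GMP and 25.3 in MEP, but highest in MEP by both other scalings. Tfam, which packs and transcribes mitochondrial DNA, stood at 72.1, 58.8, 46.9 and 87.8 CPM. Among the factors named for the promoter motifs, Gabpa stood at 13.2, 15.2, 14.8 and 15.3 CPM and Nrf1 at 29.9, 26.1, 22.4 and 35.6 CPM. Yy1 stood at 120, 73.3, 57.5 and 127 CPM, and Gabpb1, the partner of Gabpa, had a steady order from LSK down to MEP at 49.2, 35.5, 24.6 and 16.6 CPM. By CPM none of these 4 had the order MEP, GMP, CMP, LSK. Gabpa had that order by median-of-ratios and TMM factors, and Nrf1, Yy1 and Gabpb1 did not have it by either.

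Beyond translation, the sum of the nuclear-encoded respiratory chain had the order of gates of the ribosomal proteins. Its 84 genes summed to 25553 CPM (LSK), 32611 (CMP), 36869 (GMP) and 38224 (MEP), with a median log2 ratio of LSK over MEP of -0.62. Between GMP and MEP the 2 lists parted: the respiratory chain median was -0.02 and that of the ribosomal proteins -0.41. The ribosome biogenesis genes, which build the cytosolic ribosome, stood highest in MEP and lowest in LSK. The 20 genes summed to 5582, 6921, 6601 and 11578 CPM, so that CMP was 1.24, GMP 1.18 and MEP 2.07 times LSK. Median-of-ratios factors shift all log2 ratios of LSK over CMP and GMP by -0.38 and -0.54, which widens the steps from LSK to CMP and GMP. The 87 cytosolic ribosomal protein genes summed to 335280, 315160, 297680 and 307670 CPM. The log2 ratio of these sums for LSK over GMP, 0.17, became -0.37 by median-of-ratios and -0.27 by TMM factors, where the ribosomal proteins of mitochondria had -1.14 and -1.05. The 13 mitochondrially encoded genes, the templates of the mitochondrial ribosome, summed to 32072, 31614, 30304 and 33057 CPM, a range much narrower than that of the ribosomal proteins. The ratio of MEP over LSK of the sums was 1.03 for these templates and 1.91 for the ribosomal proteins. By median-of-ratios factors the log2 ratios of LSK over MEP were -0.56 and -1.45. The plot of list medians sets these groups beside all genes.

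**Figure D3:**
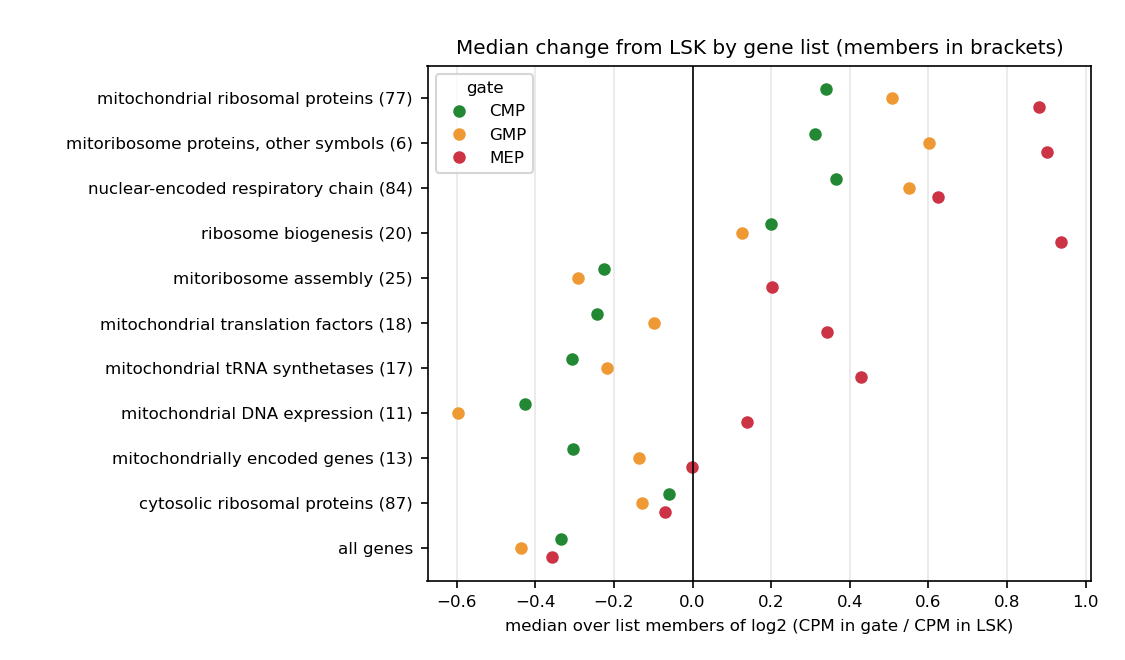
Each row is a gene list and each point the median over its genes of log2 CPM in CMP (green), GMP (orange) or MEP (red) over CPM in LSK, over genes whose 2 gates average at least 1 CPM, also in the row for all genes. The mitochondrial ribosomal proteins lie at 0.34, 0.51 and 0.88, and the medians over all genes are at -0.33, -0.44 and -0.36.

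Depth moved with the gates, since cells of LSK had the fewest UMIs and cells of MEP the most, so the level was also read within bands of UMIs per cell. Within each gate the summed level was higher in the deepest band than in the shallowest. It rose from band to band except in CMP. There it was 10429 CPM in cells with 10000 to 15000 UMIs and 10424 CPM in those with 15000 to 25000. In LSK it went from 6507 CPM in cells with under 4000 UMIs to 8268 CPM in cells with 15000 to 25000. The same bands gave 7589 and 10424 CPM in CMP, 9509 and 11544 in GMP, and 10483 and 14602 in MEP. The order of the gates was the same in all 6 bands. In cells with 8000 to 10000 UMIs the levels were 7475 CPM (LSK), 9958 (CMP), 10851 (GMP) and 12555 (MEP), so that MEP over LSK was smaller than in whole libraries. More UMIs in a cell can come with cell size, cell cycle or capture, and their parts were not tested.

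**Figure D4:**
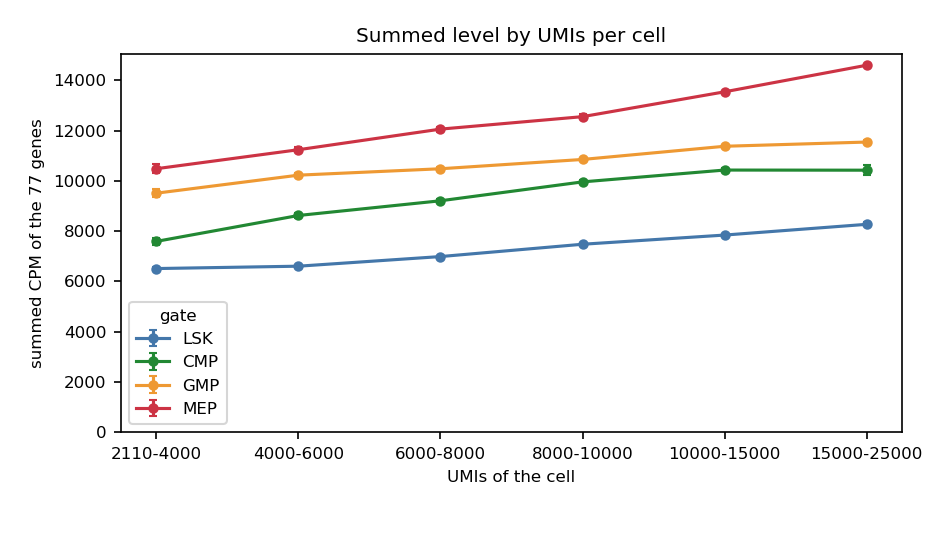
The x axis gives 6 bands of UMIs per cell and the y axis the summed CPM of the 77 genes in the cells of each band, with 1 line per gate and exact Poisson intervals that cover counting error only. The 4 lines keep their order in every band and each is higher in the deepest band than in the shallowest.

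Cells were also ordered by the UMIs of 40 S phase and G2/M genes after thinning to 3000 UMIs. Between the cells at or above the 75th percentile of that count and those at or below the 25th percentile, the summed level of the 77 genes was 1.22 times higher in LSK (7784 against 6390 CPM). The same ratio was 1.12 in CMP, 1.07 in GMP and 1.22 in MEP (14125 against 11624 CPM). The cells between the 2 bounds stood above the upper class in CMP (9664 against 9443 CPM) and, barely, in GMP (11089 against 11043 CPM, with overlapping intervals), so the level did not follow the count throughout. In each gate these differences were smaller than that between LSK and MEP. The cell cycle genes themselves differed between gates, so cycle and gate moved together. The 20 G2/M genes summed to 1466 CPM (LSK), 1838.5 (CMP), 2164 (GMP) and 2572 (MEP), the order of the ribosomal proteins. The 20 S phase genes summed to 2208, 2682, 2586 and 3161 CPM. Median log2 ratios of LSK over MEP were -0.71 for G2/M and -0.32 for S phase. The part of the cell cycle in the gradient was not tested. The class is a range of a count and not a cell type, and 3058 LSK cells lay within 1 UMI of the lower bound.

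The level also differed between clusters of cells within a gate. Clusters were made within each library with the 77 genes left out of the genes used and doublets removed, which gave 34 clusters, 28 of them with 50 cells or more. Ranges are over the latter unless a smaller cluster is named. They are named by number and by some of their 10 leading genes. In LSK the level went from 6485 CPM in cluster 7 (S100a8, Procr, Ltb), the largest with 2795 cells, to 9363 CPM in cluster 6, 57 cells led by Car1, Ermap and Klf1. In CMP it went from 7883 CPM in cluster 8 (Batf3, Cd74, H2-Aa) to 10315 CPM in cluster 4 (Plk1, Ube2c, Aurka). In GMP it went from 10141 CPM in cluster 4 (Fcer1a, Prss34, Ms4a2) to 11489 CPM in cluster 2 (Ube2c, Plk1, Nusap1). A GMP cluster of 35 cells led by Camp, Ltf and Ngp, which mark late neutrophil maturation, had 3178 CPM. In MEP the level went from 9995 CPM in cluster 9 (Elane, Pf4, Cd74) through 11626 CPM in cluster 6 (Vim, Ifitm1, Plac8) to 14942 CPM in cluster 8 (Rrm2, Ccne1, Ctse). Of the other clusters under 50 cells that lay outside these ranges, LSK cluster 9 (12 cells) had 6059 CPM, CMP cluster 2 (6 cells) 5364 CPM, GMP cluster 7 (8 cells) 7300 CPM and MEP cluster 5 (39 cells) 15647 CPM. The MEP library was mostly erythroid by its markers. These summed to 3492.5 CPM in MEP cluster 9 (4.31% of the clustered cells of the gate) and to 9681 CPM or more in every other MEP cluster. Megakaryocyte markers, among them Pf4, summed to 4753 CPM in cluster 9 and to 70.5 CPM or less in the others.

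Mrpl52 and Mrpl33 also differed between clusters inside the gates, in opposite ways in some clusters and not in others. In LSK, Mrpl52 was highest in cluster 6, the one led by erythroid genes, at 418 CPM (366 to 476), and lowest in cluster 1 (Ube2c, Hmmr) at 174 CPM. Mrpl33 stood at 249 CPM in LSK cluster 6, between 308 CPM in cluster 1 and 183 CPM in cluster 3. In CMP, Mrpl52 stood at 97.1 CPM in cluster 1 (Elane, Ly6c2, Mgst1) and at 238 CPM in cluster 5 (Csrp3, Fcer1a, Car1). Mrpl33 stood at 572 and 258 CPM in the same clusters. CMP cluster 8 (Batf3, Cd74, H2-Aa) had 235 CPM of Mrpl52 and 418 CPM of Mrpl33. In GMP, Mrpl52 was at 67.2 to 103 CPM in every cluster of 50 cells or more, while Mrpl33 reached 751 CPM in cluster 6 (Lgals3, Klf4, Ctss). In MEP, Mrpl52 was lowest in cluster 9 at 224 CPM. The other MEP clusters of 50 cells or more had 369 to 487 CPM of it, and cluster 5 had 534 CPM. Mrpl33 stayed within 174 to 251 CPM in MEP and was also lowest in cluster 9. Across the 28 clusters the ratio of highest to lowest was 7.25 for Mrpl52 and 4.31 for Mrpl33, with 5.19 for Mrps22, 5.10 for Mrps18b and 5.01 for Mrpl18.

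**Figure D5:**
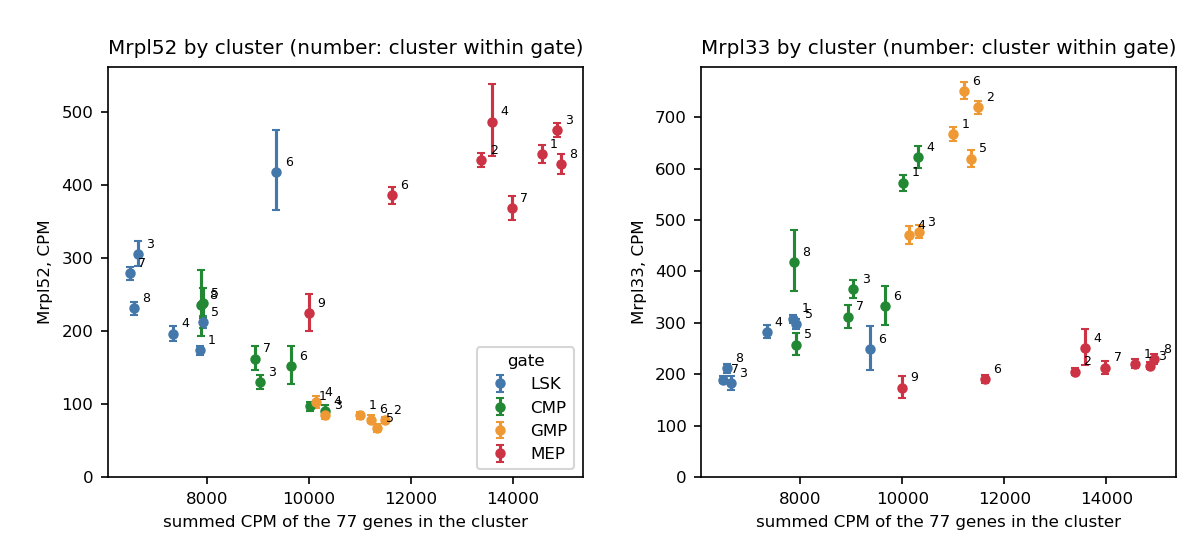
The x axis is the summed CPM of the 77 genes in a cluster and the y axis the CPM of Mrpl52 (left) or Mrpl33 (right), with exact Poisson intervals that cover counting error only. Each point is a cluster of 50 cells or more, coloured by gate and numbered within it. Mrpl52 is above 200 CPM in every MEP cluster and at 103 or less in every GMP cluster, and Mrpl33 is at 471 or more in GMP and at 251 or less in MEP.

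Across the 28 clusters the summed level of the 77 genes went with that of the nuclear-encoded respiratory chain (Pearson's r 0.94, Spearman's rho 0.96) and of ribosome biogenesis (0.88 and 0.79). It went less with the cell cycle genes (0.57 and 0.47) or the mitochondrially encoded genes (0.25 and 0.20), and inversely with the cytosolic ribosomal proteins (-0.35 and -0.56). It also went with the median UMIs per cell of the cluster (0.80 and 0.72). These correlations are descriptions: the clusters come from 4 libraries, they share depth and total, and the parts of depth and gate were not tested.

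Cell-to-cell spread in the summed level was above counting noise in each gate. In thinned cells the variance of the summed UMIs was 1.86 times that expected from counting in MEP, 1.56 in CMP, 1.38 in LSK and 1.36 in GMP. Single genes varied little beyond counting: the median ratio of variance to mean was 1.01 or 1.02 in every gate. That is much like all genes in the same range of levels, with medians of 1.03 (LSK), 1.02 (CMP), 1.02 (GMP) and 1.01 (MEP). The highest value among the mitochondrial ribosomal protein genes was 1.22, for Mrpl33 in CMP, the gate whose clusters differ in it from 258 to 622 CPM.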

How the data were processed

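The deposited matrices hold raw UMI counts per gene and barcode, made by the authors with the 10x Genomics 3' kit. Per the submitters' processing notes the tools were CASAVA 1.8.2, Cell Ranger 2.0.0 and Seurat 2.3.0 with the mm10 build; how cells were filtered and whether counting used strand are not stated there or in the labels. The 10883 LSK barcodes with the most UMIs and all barcodes of the other matrices were taken, less those under 500 genes or over 10% mitochondrial UMIs. The libraries held 75167959 (LSK), 26919088 (CMP), 73362645 (GMP) and 80273121 (MEP) UMIs. The design text states 12185 CMP cells; those beyond the 3738 barcodes of the matrix were not analysed here.

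Counts were summed per library and given as CPM. Sums have exact Poisson intervals, ratios exact conditional binomial intervals and shares exact Clopper-Pearson intervals. Ratios used a floor of 3 counts. Doublets were scored against simulated pairs, and the highest scores were removed at 0.8% per 1000 cells (945, 110, 515 and 316 cells) before clustering; library sums kept them. Clusters came from Scanpy 1.11.5 (2000 variable genes, 30 principal components, 15 neighbours, Leiden resolution 0.5). The calculations were tested on simulated data. Named genes were those with the highest and lowest levels, the largest and smallest ratios between gates, and members of structural lists; leading genes of clusters, and genes of the other lists beyond the largest ratios, were chosen for naming after seeing their values. The members and lists were chosen with earlier results of these data known. Alternatives were other scaling factors, minimum levels, equal weight per cell, doublet removal, other class bounds, another cluster resolution and a band of UMIs.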

Additional observations from a re-analysis of the deposited data

Results flagged for a closer look

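The 77 genes were also present in LSK barcodes outside the cells. In the 426145 barcodes with fewer than 100 UMIs, which no comparison used, they made up 7576 CPM (7420 to 7735), against 7248.5 CPM in the LSK cells. They held 8910 UMIs of these genes. Barcodes this shallow were in the LSK matrix only, so the same value could not be read for the other gates.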

How the results depend on the processing

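Of 152 alternative values for 38 results, 85 stayed within counting error or 1.5 times the count and 67 moved. A change of sign was looked for only in the median log2 ratios, and 0 of these reversed. Single genes were not part of these results, and Mrpl24, Mrpl33 and Mrps6 did change sign with scaling for LSK over MEP, as given above. With each cell weighing equally the summed levels were 6989 CPM (LSK), 9155 (CMP), 10820 (GMP) and 13230 (MEP), and in cells with 8000 to 10000 UMIs, added after seeing the data, they were 7475, 9958, 10850 and 12560 CPM. Median log2 ratios (over genes whose 2 gates average at least 1 CPM; -0.34, -0.51, -0.88, -0.14, -0.56 and -0.41 by CPM) are given in the order LSK over CMP, LSK over GMP, LSK over MEP, CMP over GMP, CMP over MEP and GMP over MEP. They were -0.33, -0.59, -0.84, -0.18, -0.54 and -0.37 with equal weights, -0.38, -0.49, -0.69, -0.085, -0.36 and -0.27 in that band, -0.72, -1.045, -1.40, -0.30, -0.70 and -0.39 by median-of-ratios factors, and -0.65, -0.95, -1.32, -0.27, -0.68 and -0.40 by TMM factors. Without doublets LSK over GMP was -0.49 and LSK over MEP -0.87. The factors shifted all log2 ratios of LSK over CMP, GMP and MEP by -0.38, -0.54 and -0.52 (median-of-ratios) or -0.31, -0.45 and -0.44 (TMM), and those of CMP over GMP and MEP by -0.16 and -0.14 or -0.13 and -0.12. The number of genes 2-fold higher in CMP than LSK was 7 by either scaling and 1 in the band, which also gave 1 higher in LSK. In GMP over LSK it was 44, 38 and 3 by median-of-ratios, TMM and the band, and 3 without doublets; in LSK over GMP it was 0 by median-of-ratios. In MEP over LSK it was 60, 57 and 17, in MEP over CMP 18, 17 and 1, and in MEP over GMP 2 in the band. With no minimum beyond 3 counts, 1 gene, Mrpl53, was 2-fold higher in LSK than MEP. The ratio between cell cycle classes bounded at the 10th and 90th percentile was 1.20 (LSK), 1.145 (CMP), 1.10 (GMP) and 1.33 (MEP), and that between clusters at resolution 1 was 1.504, 1.36, 1.36 and 1.595. The cause of these differences was not tested. Shares of cells with a UMI rose without thinning, as given with them. No paired analysis was possible because each gate was 1 library, and no library could be left out. Depth limits Mrpl53, whose interval in CMP rests on 26 UMIs.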
